A study of Mus musculus with 2 samples.

Results

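The cells described here were 676 cells of the mouse colon, gated as fibroblasts, that carried Saa3, Cxcl5 or Cxcl9. They were found among 4409 cells of a Pdgfra reporter library and 11904 cells in the whole series. They were chosen in 2 steps. Cells were first gated to Epcam at 0, Ptprc at 0, Col1a1 at 1 or more, F3, Sox6, Wnt5a and Acta2 summing to under 4, and Pi16, Pcolce2 and Cd81 summing to under 3. These steps took out cells with Epcam or Ptprc detected or without Col1a1. They also took out most cells with the genes of crypt top fibroblasts (CTFs) or of the second type of crypt bottom fibroblasts (CBFs2). This gate kept 2920 cells (66.2%). The natural log values of Saa3, Cxcl5 and Cxcl9 were then summed, and the members had a sum above 0 and at or above the 85th percentile of the gated cells. The 85th percentile was 0.693, the natural log value of a corrected count of 1, so that each gated cell with any value of any of the 3 genes was a member. The members were 23.2% of the gated cells (95% Clopper-Pearson interval 21.6 to 24.7, which covers counting error only, here and below). The other 2244 gated cells, all with a sum of 0, were the comparison. The 286 members just inside the threshold had a sum of 0.693, the cells just outside had 0, and the highest sum was 10.1.

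The study asked which mesenchymal cells surround the colonic crypt. The reporter library held GFP-positive colonic cells of adult female Pdgfra-H2B-eGFP mice, sorted with a viability stain and without antibodies, and made with the 10x v2 kit. The other library held epithelial and non-epithelial cells of adult female C57BL/6 wild-type mice, sorted with EpCAM and CD45 antibodies, mixed in equal parts and made with the v3 kit. Each library pooled 3 mice, no treatment is named, and the tables do not assign cells to mice, so that there was 1 library per group, no replicate, and no p-value. In the reporter mice, a nuclear GFP driven at the Pdgfra gene marks cells with Pdgfra, and cells without it are outside what this library can show. Values are UMI counts that the authors corrected to a common depth (corrected counts). Total corrected counts lay between 2314 and 4432 per reporter cell (median 3150), and 1 cell barcode occurred in both libraries.

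Fibroblasts answer inflammatory signals by secreting chemokines, the small proteins that draw leukocytes into tissue. Cxcl9, with its relatives Cxcl10 and Cxcl11, attracts T and NK cells through the receptor CXCR3 and is induced by interferon-gamma. Cxcl5 attracts neutrophils through CXCR2 and is induced by NF-kB and IL-17 signals. Saa3 is an acute phase serum amyloid A protein, made in tissues rather than mainly in the liver. Interferon-gamma also induces guanylate-binding proteins (Gbp) and antigen presentation genes.

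The promoters of Saa3, Cxcl9, Cxcl10 and Ubd are shown because the short motifs of these signals can be read in them. They are the rule genes present in the set of RefSeq promoters used here, the induced chemokine and the gene that led the members. That set lacks Cxcl5. Each line gives the 250 bases before the RefSeq transcription start on GRCm38.p6, 5′ to 3′ in the direction of the gene. Capitals mark 4 motifs searched on both strands: GGGNNNNNCC for NF-kB, TTCNNNGAA for the gamma-activated site of interferon-induced genes, GAAA, any 2 bases and GAAA again for the core of the interferon-stimulated response element, and TTGCNNAA for C/EBP.
Saa3, chr7:46715677-46715926, minus strand: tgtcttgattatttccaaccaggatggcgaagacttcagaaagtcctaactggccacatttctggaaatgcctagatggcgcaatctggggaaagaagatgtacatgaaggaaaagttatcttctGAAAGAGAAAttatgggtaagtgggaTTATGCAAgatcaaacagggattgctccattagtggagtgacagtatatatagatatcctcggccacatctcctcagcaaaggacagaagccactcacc
Cxcl9, chr5:92328080-92328329, minus strand: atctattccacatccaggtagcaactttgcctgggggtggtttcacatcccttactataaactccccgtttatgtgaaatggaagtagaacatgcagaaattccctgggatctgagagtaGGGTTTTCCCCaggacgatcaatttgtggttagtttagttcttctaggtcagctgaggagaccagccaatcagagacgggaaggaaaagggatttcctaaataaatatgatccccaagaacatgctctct
Cxcl10, chr5:92348890-92349139, minus strand: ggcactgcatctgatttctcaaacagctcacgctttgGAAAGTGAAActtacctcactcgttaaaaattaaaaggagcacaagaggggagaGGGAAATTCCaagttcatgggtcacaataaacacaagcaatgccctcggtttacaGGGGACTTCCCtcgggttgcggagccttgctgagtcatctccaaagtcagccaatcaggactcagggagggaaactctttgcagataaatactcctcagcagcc
Ubd, chr17:37193642-37193891, plus strand: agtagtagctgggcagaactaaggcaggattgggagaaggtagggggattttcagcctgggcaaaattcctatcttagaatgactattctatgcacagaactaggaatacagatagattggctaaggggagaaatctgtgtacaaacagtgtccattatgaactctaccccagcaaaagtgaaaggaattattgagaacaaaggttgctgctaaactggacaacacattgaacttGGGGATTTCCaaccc
The Saa3 window held the interferon-stimulated core 125 to 116 bases before the start and the C/EBP letters 99 to 92 bases before it, and its last 24 bases lie in a first exon of the GENCODE annotation. The Cxcl9 window held overlapping NF-kB matches from 130 to 120 bases before the start. The Cxcl10 window held NF-kB matches at 159 to 150 and at 104 to 94 bases and the interferon-stimulated core at 213 to 204 bases before the start. The Ubd window held NF-kB letters 15 to 6 bases before the start. Of the 32851 RefSeq promoters, 45.8% held the NF-kB letters on either strand, 7.02% the gamma-activated site, 2.98% the interferon-stimulated core and 9.56% the C/EBP letters. A match is a description of letters, not a binding site. Of the 25 genes that led the members (below), 17 had an entry in the promoter set used, and the rest could not be searched. Of these 17, 12 held the NF-kB letters (70.6%), 5 the gamma-activated site (29.4%), 4 the interferon-stimulated core (23.5%) and 3 the C/EBP letters (17.6%). A leading gene was counted where any of its entries held the letters, while the shares of the 32851 promoters count each entry singly. These shares are therefore not like for like. In the GENCODE annotation of GRCm38, Saa3 lies at chr7:46711998-46715700 on the minus strand, Cxcl5 at chr5:90759360-90761624 on the plus strand, and Cxcl9 at chr5:92321347-92328079 and Cxcl10 at chr5:92346638-92348889 on the minus strand.

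The members were not cells that share the 3 genes. Cxcl9 was above 0 in 421 members (62.3%), Cxcl5 in 287 (42.5%) and Saa3 in 102 (15.1%). Most members, 558 (82.5%), had 1 of the 3 genes above 0: Cxcl9 alone in 310 cells, Cxcl5 alone in 202 and Saa3 alone in 46. Cxcl5 with Cxcl9 was found in 62 cells, Saa3 with Cxcl9 in 33, Saa3 with Cxcl5 in 7 and all 3 in 16. The label of inflammatory fibroblasts with Saa3, Cxcl5 and Cxcl9 therefore describes 16 of 676 cells in full, and the members are called here by the rule, as cells with any of the 3. These values chose the members and are a description. Thinning each cell to 2000 corrected counts, which no gated cell fell below, left Cxcl9 above 0 in 50.1% of the members, Cxcl5 in 30.5% and Saa3 in 11.5%.

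**Figure D1:**
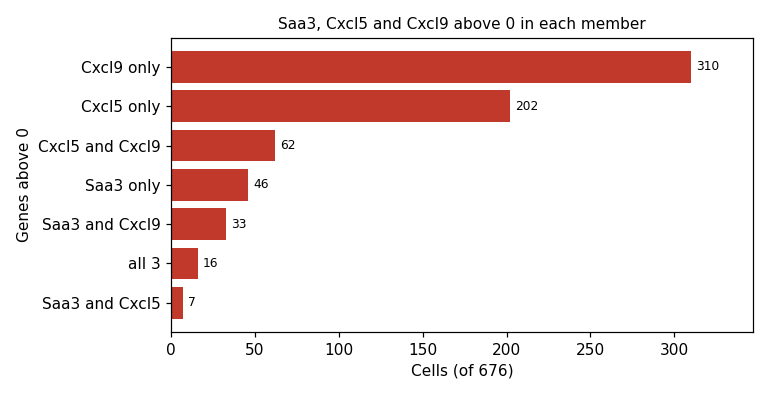
Number of the 676 members (horizontal axis, cells) with each combination of Saa3, Cxcl5 and Cxcl9 above 0 (vertical axis). Cxcl9 alone (310 cells) and Cxcl5 alone (202 cells) make up most members, and 16 cells carry all 3.

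Each of the 3 genes was held by few cells with high values. Saa3 had the highest mean of the 3 in the members, 2.86 corrected counts per cell (SD over cells 17.4), and 10 cells held 60.7% of its sum, with 311 in the highest cell and a median of 2 where it was above 0. Cxcl9 had a mean of 2.35 (SD over cells 4.51), a median of 2 where above 0, and 52 in the highest cell. Cxcl5 had a mean of 1.28 (SD over cells 3.65), a median of 1 where above 0, and 41 in the highest cell. The mean of Saa3 is thus set by a handful of cells, and those of Cxcl9 and Cxcl5 by more cells, with 43.2% of the Cxcl9 sum in 42 cells and 46.4% of the Cxcl5 sum in 28.

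Outside the gate the 3 genes were distributed differently. In the 516 cells left out by the CTF gate alone, Cxcl9 was above 0 in 14.1% (interval 11.3 to 17.5), beside 14.4% of all gated cells (13.2 to 15.7), and after thinning the shares were 11.8% and 11.6%. Cxcl9 was therefore about as frequent among cells with CTF genes as in the gated cells. In the 697 cells left out by the gate on Pi16, Pcolce2 and Cd81 alone, Cxcl9 was above 0 in 3.30% (2.10 to 4.91), Cxcl5 in 3.30% and Saa3 in 1.29%. Cxcl5 was above 0 in 6.59% of the CTF-gene cells (4.61 to 9.09) and 9.83% of the gated cells (8.77 to 10.97), and Saa3 in 1.94% (0.933 to 3.54) and 3.49% (2.86 to 4.22). The 63 Epcam-positive cells of the library, of which 28 had Col1a1 at 1 or more and which are therefore no background set for fibroblast genes, had Cxcl9 in 6.35% (1.76 to 15.5), Cxcl5 in 1.59% and Saa3 in 3.17%, at a median of 1401 genes per cell beside 1377 in the gated cells. Of the 38 Ptprc-positive cells, 23 had Col1a1 at 1 or more and 8 had Cxcl9 (21.1%, 9.55 to 37.3). The interval of the Saa3 share in the Epcam-positive cells was wide (0.387 to 11.002) and included the share in the gated cells.

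Although most members had 1 gene, each of the 3 genes was more frequent among gated cells that carried another of them than among those that did not. Saa3 was above 0 in 11.6% of the gated cells with Cxcl9 (interval 8.74 to 15.1) and in 2.12% of those without (1.59 to 2.77). Cxcl5 was above 0 in 18.5% of the cells with Cxcl9 (14.9 to 22.6) and 8.36% of those without (7.31 to 9.52). Cells with more genes detected more often carried any of the 3: the members were 12.4% of the gated cells in the lowest tertile of genes per cell (594 to 1213 genes), 23.05% in the middle tertile and 34.0% in the highest (1581 to 2393 genes). Within the highest tertile, Saa3 was in 14.2% of the cells with Cxcl9 (9.89 to 19.4) and 2.95% of those without (1.85 to 4.43), and within the middle tertile in 10.4% (5.79 to 16.8) and 1.91% (1.10 to 3.09). In the lowest tertile the intervals of this pair overlapped, with 3 of 60 and 15 of 915 cells. Saa3 and Cxcl5 were less closely tied, with Saa3 in 8.01% of the cells with Cxcl5 (5.15 to 11.8) and 3.00% of those without (2.38 to 3.73), and in the lowest tertile there were 1 of 55 and 17 of 920 cells.

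The members carried fibroblast genes, as did the other gated cells. All were sorted for Pdgfra-GFP and gated on Col1a1, so that like levels in both classes do not test their identity. Vim, Pdgfra, Pdgfrb, Thy1, Cd34, Ly6a, Gli1, Dpt, Twist2 and Sparc were each detected in some members, their sum was at least 6 in every member (median 28), and none of the 10 differed by 1.5-fold from the other gated cells. Sparc was above 0 in 99.9% of the members and Vim in 96.9%, but Pdgfra in 25.6% and Gli1 in 7.25%, beside 26.2% and 7.17% of the others. Vim, an intermediate filament protein of mesenchymal cells, had a mean of 4.38 corrected counts in the members and 4.10 in the others, and Pdgfra, the receptor that defines the reporter, 0.312 and 0.351. Col3a1 and Dcn, a fibrillar collagen and a matrix proteoglycan, were at 15.8 and 19.4 in the members and 15.2 and 18.7 in the others. Of the leukocyte list, 12 of 14 genes were in the table, and their sum was above 0 in 13.5% of the members (10.98 to 16.3) and 11.7% of the others (10.4 to 13.1). That sum ranged from 0 to 46 in the members and from 0 to 66 in the others, with Itgam at 0 in the members. Of the 5 leukocyte genes tested, 3 (Fcer1g, C1qa and C1qb) were at least 1.5-fold higher in the members, with a list median of 0.63 beside 0.20 for all genes tested, and none was so in every tertile. The 5 smooth muscle and pericyte genes summed above 0 in 16.7% of the members (13.98 to 19.7), 11.3% of the others (10.04 to 12.7) and 20.3% of the cells with Cxcl9 alone. Of the 2 tested, Des, a muscle intermediate filament protein, was at 0.164 in the members and 0.106 in the others, a log2 ratio of 0.59. The part of these cell types in the results was not tested. The sum of the epithelial list ranged from 0 to 8 in the members and from 0 to 3 in the others, with Cdh1 at 0 in the members, and that of the 3 endothelial genes from 0 to 6 and from 0 to 3, with Kdr at 0 in the members.

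Members had more genes per cell than the other gated cells, a median of 1565 against 1328.5, and a higher total, 3445 against 3025. Their median mitochondrial share was 2.13% against 2.50%. This difference touches each ratio below. Over the 9446 genes with a mean of at least 0.02 over all gated cells, the median log2 ratio of members over other gated cells was 0.20, and ratios are to be read against it. Within tertiles of genes per cell the median was −0.01, 0.00 and 0.04, so that a ratio that holds in each tertile does so at like numbers of genes per cell.

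The members had higher levels of interferon-induced genes, chemokines and genes of the NF-kB pathway than the other gated cells, at about the same level of matrix and fibroblast genes. Of the genes tested, 672 (7.11%) were at least 1.5-fold higher in the members and 43 (0.455%) at least 1.5-fold lower. When class sums were scaled to the class total, 359 (3.8%) were higher and 60 (0.635%) lower, so that the share of higher genes among those past the fold depended on the scaling. At least 1.5-fold in every tertile were 45 genes higher (0.476%) and 10 lower (0.106%). Of the 25 genes with the highest ratio, 20 were at least 1.5-fold higher in every tertile. Those 25 were chosen by their ratio over the same cells, so that this count is a description. With 1 library there is no spread between mice, and no ratio was tested.

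Among the 25 leading genes, 2 further chemokines that bind CXCR3 stood with Cxcl9. Cxcl10 had a mean of 5.03 corrected counts per cell in the members (SD over cells 6.82) and 1.79 in the others (SD 3.56), a log2 ratio of 1.48, and it was above 0 in 63.8% of the members (60.01 to 67.4) and 37.7% of the others (35.7 to 39.7). Thinned to a common depth the shares were 58.0% and 33.6%. The log2 ratio of Cxcl10 was 1.34, 1.54 and 1.23 in the lowest, middle and highest tertile of genes per cell. Cxcl11, which is annotated as a polymorphic pseudogene in this reference, had means of 0.0754 and 0.0174, and 5 cells held 64.7% of its sum in the members.

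Ccl2, which attracts monocytes, was at a mean of 3.21 in the members (SD over cells 6.73) and 1.122 in the others (SD 3.09), a log2 ratio of 1.51. It was above 0 in 49.4% (45.6 to 53.2) and 26.9% (25.05 to 28.8), and in every tertile its log2 ratio was at least 1.22. Of 6 CC chemokines tested, 5 were at least 1.5-fold higher. Ccl7 and Ccl8, further monocyte chemoattractants, had means of 1.64 and 0.967 in the members and 1.05 and 0.539 in the others. Ccl11, the eosinophil chemokine eotaxin, was at 3.42 and 2.997, a log2 ratio of 0.19. Ccl2 was the CC chemokine of the list that kept 1.5-fold in every tertile, and Ccl5 and Ccl19 had means below 0.1.

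Of the neutrophil chemokines, which share the receptor CXCR2 with Cxcl5, Cxcl2 had a mean of 2.02 in the members and 0.713 in the others, a log2 ratio of 1.49, and at least 1.31 in every tertile. Cxcl1 was high in both classes, at 9.05 and 5.87, a log2 ratio of 0.62. Cxcl12, a chemokine made by resting stroma, was at 10.3 and 10.5 and did not differ by 1.5-fold, and Cxcl16 was at 0.537 and 0.254, a log2 ratio of 1.05. Cxcl1 and Cxcl2 are close paralogs, as are the Gbp and the Serpina3 genes, and how the counting shared reads between such copies is not given in the sources used here.

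Interferon-gamma response genes were higher almost throughout. Of 18 tested, 17 were at least 1.5-fold higher in the members, with a list median log2 ratio of 0.89 beside 0.20 for all genes tested, 14 were so when scaled to class totals, and 7 were so in every tertile. Gbp2, a GTPase that acts on intracellular pathogens, was at 1.17 and 0.408, and above 0 in 46.4% and 23.9%. Gbp4 was at 0.303 and 0.0753 and Gbp5 at 0.213 and 0.0735, with log2 ratios of 1.88 and 1.42, and Gbp6 and Gbp2b were also among the leading genes. Iigp1, an immunity-related GTPase, was at 3.18 and 1.62. Gbp2, Gbp4, Gbp5, Iigp1, Irgm1 and Nlrc5 were among those that held in every tertile. Socs1, a feedback inhibitor of the pathway, was the gene under 1.5-fold, at 0.578 and 0.475.

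The genes known for type I interferon stood less far apart: 7 of 14 were at least 1.5-fold higher, with a list median of 0.63, and none was so in every tertile. Rtp4 and Xaf1 were at 0.357 and 0.358 in the members and 0.211 and 0.203 in the others. Isg15, a ubiquitin-like protein, was at 0.453 and 0.302, a log2 ratio of 0.57, and Rsad2 and Ifi27 had ratios below 0. Of the MHC class I genes, 2 of 8 were at least 1.5-fold higher, H2-T23 with 1.54 and 0.948 and H2-Q6 with 0.976 and 0.640, while B2m was at 27.03 and 22.2. Of the 6 MHC class II genes, 4 were at least 1.5-fold higher (H2-Aa, H2-Ab1, H2-Eb1 and H2-DMa), with means of at most 0.201 in the members, and H2-Ab1 was above 0 in 9.62% of the members (7.499 to 12.1) and 5.53% of the others (4.62 to 6.55). None of the class II genes passed in every tertile. The class II means rested on few cells, and the 2 highest of the 676 members for each gene held 51.3% of the H2-Aa sum, 41.2% of the H2-Ab1 sum, 45.8% of the H2-Eb1 sum and 10.9% of the H2-DMa sum. Without each gene's 2 highest members, an alternative chosen after seeing the data, none of the 4 stayed at 1.5-fold, with log2 ratios of −0.11 for H2-Aa, 0.09 for H2-Ab1, −0.08 for H2-Eb1 and 0.49 for H2-DMa. With the same share of the highest cells also left out of the others (7 cells), the log2 ratios were 0.75, 0.76, 0.57 and 0.70. The same classes had the leukocyte genes C1qa and C1qb at 0.0414 and 0.0473 in the members and 0.0183 and 0.0223 in the others, and their part in the class II values was not tested.

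**Figure D2:**
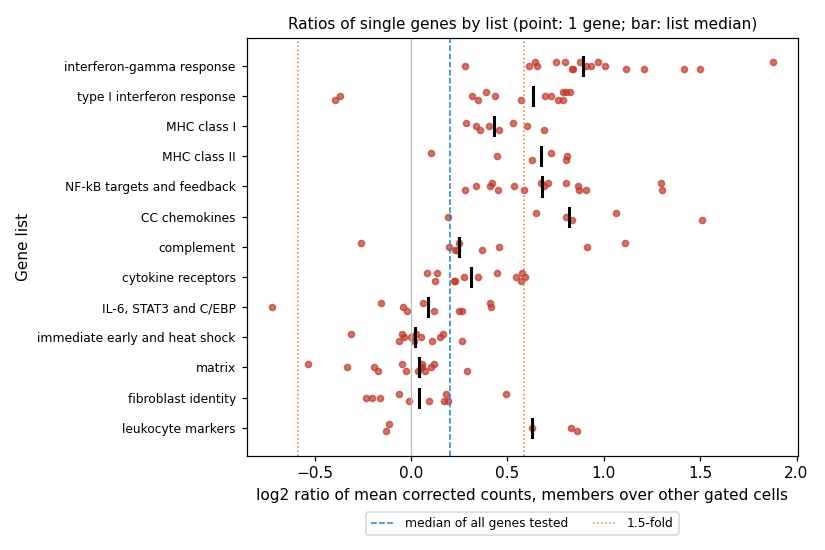
Log2 ratio of the mean corrected count per cell in members over other gated cells (horizontal axis) for each gene of 13 lists (vertical axis), with 1 point per gene, a black bar at the list median, the median of all genes tested as a dashed line at 0.20 and 1.5-fold as dotted lines. The interferon-gamma response list lies almost entirely past 1.5-fold, with a median of 0.89, while the matrix and fibroblast lists lie around 0.

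Of 16 NF-kB target and feedback genes, 10 were at least 1.5-fold higher, with a list median of 0.68, and 2 were so in every tertile. Those 2 were Sod2, the mitochondrial superoxide dismutase, at 1.21 in the members and 0.483 in the others (log2 ratio 1.30), and Nfkbie, an inhibitor of NF-kB, at 0.0902 and 0.0307. Nfkbia, the inhibitor that NF-kB induces first, was at 5.15 and 3.42, a log2 ratio of 0.59. Vcam1 and Icam1, adhesion molecules for leukocytes, were at 1.56 and 1.84 in the members and 0.949 and 1.27 in the others, and Tnfaip3 was at 0.284 and 0.205, under 1.5-fold. Of 10 genes of IL-6, Stat3 and C/EBP signals, none was 1.5-fold higher and Il11 was lower at 0.0104 and 0.0236. Socs3, the feedback inhibitor of that pathway, was at 2.46 and 2.49 and Il6 at 1.17 and 0.882.

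Acute phase genes other than Saa3 were partly higher. Serpina3g, a protease inhibitor, was at 1.46 in the members and 0.584 in the others (log2 ratio 1.31), its neighbor Serpina3f at 0.454 and 0.0927 (2.18), and Steap4, a metalloreductase, at 0.173 and 0.0660 (1.27), each at least 1.5-fold higher in every tertile. Serpina3n was at 1.79 and 1.21, a log2 ratio of 0.56. Lcn2 and Saa1 were under the minimum mean, at 0.0207 and 0.00444 in the members. Of 9 complement genes, Cfb and C2 were at least 1.5-fold higher, Cfb with 0.214 and 0.0940, and C3, the central component, was at 1.19 and 1.014. No complement gene was so in every tertile, and the smallest log2 ratio in a tertile was 0.11 for Cfb and 0.51 for C2. Il34, a growth factor for macrophages, was at 0.198 and 0.0838, a log2 ratio of 1.15 that was 0.47 in the highest tertile, under 1.5-fold. Csf1, the other ligand of the same receptor, was at 0.481 and 0.384, a log2 ratio of 0.32.

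**Figure D3:**
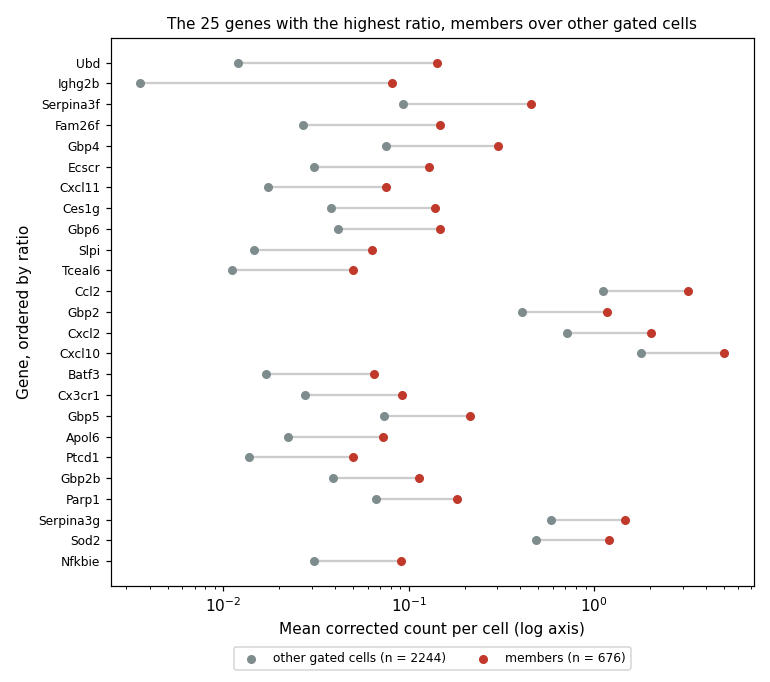
Mean corrected count per cell (horizontal log axis) in the 676 members and the 2244 other gated cells for the 25 genes with the highest ratio, ordered by ratio. Cxcl10, Ccl2, Cxcl2, Serpina3g, Sod2 and Gbp2 are the leading genes with a mean above 1 in the members, and the genes at the top have means below 0.5.

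The highest ratios belonged to rare transcripts. Ubd, a ubiquitin-like protein induced by interferon-gamma and TNF, had the highest log2 ratio, 2.79, and was above 0 in 7.25% of the members (5.41 to 9.47) and 0.980% of the others (0.615 to 1.48). Ighg2b, an immunoglobulin heavy chain, came second at 2.75, but 1 cell with 53 corrected counts held 96.4% of its sum in the members. Slpi, Cx3cr1 and Parp1 also rested on few cells, with 86.0%, 91.9% and 71.5% of their sums in 5 cells. Ecscr, Ces1g, Gbp6, Fam26f and Tceal6 were above 0 in between 3.25% and 12.6% of the members and were 1.5-fold higher in every tertile. AW112010, an interferon-inducible transcript named here after its values were seen, was at 7.95 and 3.48.

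Few genes were lower in the members, and of 4 CBFs2 genes tested 2, Cilp and Ptn, were at least 1.5-fold lower, where the gate takes out most cells with CBFs2 genes. Pcolce2, 1 of the genes of the gate, was at 0.0104 in the members and 0.0410 in the others, and Cilp, a matrix protein of CBFs2, at 0.0163 and 0.0713, with the lowest log2 ratio, −1.63. Gas1, a Hedgehog co-receptor, was at 0.0251 and 0.0838, Sfrp4, a secreted Wnt inhibitor, at 0.0148 and 0.0508, and Ebf1, a transcription factor, at 0.0902 and 0.212. These ratios did not hold at each depth: 3 of the 15 lowest genes were at least 1.5-fold lower in every tertile. Adcyap1r1, a neuropeptide receptor, was among the 3, at 0.0148 and 0.0463. Gas1, Ebf1 and Ptn were among those higher in the members of the highest tertile, with log2 ratios of 0.94, 1.22 and 1.62. Ptn was above 0 in 6 members, and 5 cells held 93.3% of its sum there. With a pseudocount of 0.1 in place of 0.01, the log2 ratios of Cilp, Gas1, Pcolce2, Sfrp4 and Adcyap1r1 lay between −0.56 and −0.35, all under 1.5-fold, and that of Ebf1 was −0.71.

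Genes that mark the position of fibroblasts along the crypt differed little. None of 14 matrix genes, of 12 immediate early and heat shock genes and of the 5 Wnt, R-spondin and Bmp antagonist genes of the crypt bottom that were tested was 1.5-fold apart, with list medians of 0.04, 0.02 and 0.04. Grem1, a Bmp antagonist of the crypt bottom, was at 0.521 in the members and 0.572 in the others. Bmp4, a ligand of the crypt top, was at 2.60 and 2.62. Of 10 tested Bmp ligand and crypt-top genes, none was higher and Bmp3 was lower, and of 8 tested CBFs1 genes, Ccl8 was higher. Of 12 cytokine receptors, 1 was at least 1.5-fold higher, beside 7.11% of all genes tested. It was Ifngr2, with 0.189 and 0.123 (log2 ratio 0.59). Its log2 ratio was 0.49 when scaled to class totals and 0.14 in the highest tertile, both under 1.5-fold. Ifngr1, the ligand-binding chain of the interferon-gamma receptor, was at 0.852 and 0.570 (0.57). Fos, an immediate early gene that tissue dissociation can induce, was at 19.3 and 16.02.

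Levels of several interferon and chemokine genes were higher at a higher summed corrected count of Saa3, Cxcl5 and Cxcl9. In the 2244 cells at 0 the mean of Cxcl10 was 1.79, in the 286 cells at 1 it was 3.58, in the 233 cells at 2 to 4 it was 5.18, in the 96 cells at 5 to 14 it was 6.67, and in the 61 cells at 15 or more it was 8.72. The mean of Ccl2 was 1.122, 1.85, 2.42, 4.76 and 10.2 in the same bins. The mean of Gbp2 went from 0.408 to 3.43 and that of Sod2 from 0.483 to 3.21. Cxcl1 did not climb in this way, with means of 5.87, 7.88, 10.4, 9.43 and 8.85 from the lowest to the highest bin. Col3a1 stayed between 13.1 and 16.3, and Pdgfra between 0.197 and 0.385, with its lowest mean in the highest bin. Cells carried a median of 1328.5 genes in the bin at 0 and of 1533, 1603, 1534 and 1766 genes in the 4 bins above 0. The part of genes per cell in these means was not tested. Members at the lowest sum, a corrected count of 1, thus lay between the cells at 0 and the members at higher sums for Cxcl10 and Ccl2.

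**Figure D4:**
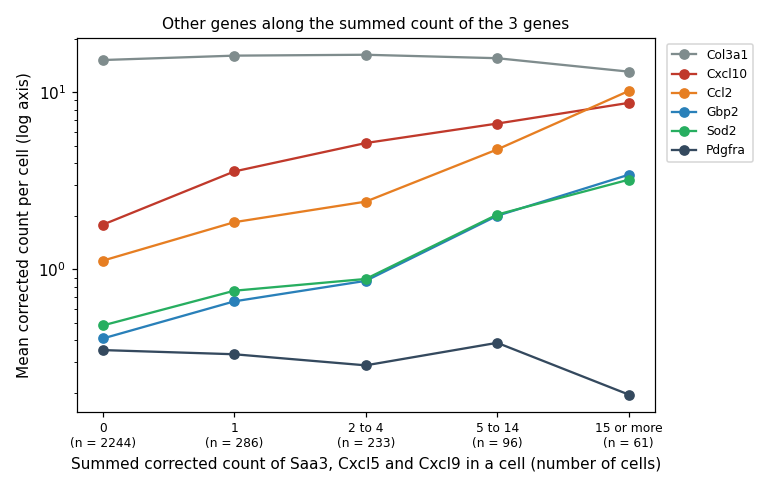
Mean corrected count per cell (vertical log axis) of 6 genes in gated cells binned by the summed corrected count of Saa3, Cxcl5 and Cxcl9 (horizontal axis, with the number of cells). Cxcl10, Ccl2, Gbp2 and Sod2 climb from the cells at 0 to the cells at 15 or more, while Col3a1 and Pdgfra do not.

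Cells with Cxcl9 alone and cells with Cxcl5 alone differed from each other. Against cells with none of the 3 genes, 1131 of the genes tested (12%) were at least 1.5-fold higher in the 310 cells with Cxcl9 alone and 734 (7.77%) in the 202 cells with Cxcl5 alone, which had median gene numbers of 1592 and 1483.5, and 145 (1.54%) and 411 (4.35%) were at least 1.5-fold lower. Of the 18 interferon-gamma response genes, 15 were higher with Cxcl9 alone (list median 0.78) and 8 with Cxcl5 alone (0.56). The median log2 ratio over all genes tested was 0.22 with Cxcl9 alone and 0.12 with Cxcl5 alone. List medians and counts past the fold are to be read against these. The counts of NF-kB genes were closer, 6 and 7 of 16, with medians of 0.55 and 0.54. Cxcl10 was at 5.77 with Cxcl9 alone and 2.94 with Cxcl5 alone, and above 0 in 72.9% (67.6 to 77.8) and 46.0% (39.0 to 53.2), or 65.5% and 41.1% once thinned. Ccl2 was at 2.19 and 2.91, and Serpina3g at 1.27 and 1.11. Grem1 lay the other way, at 0.281 with Cxcl9 alone and 0.837 with Cxcl5 alone, above 0 in 15.5% (11.6 to 20.0) and 39.1% (32.3 to 46.2), beside 0.572 in cells with none. The 4 class II genes that were 1.5-fold higher in all members were so with Cxcl9 alone, where the highest cell for each gene held 57.9% of the H2-Aa sum, 50.7% of the H2-Ab1 sum and 42.9% of the H2-Eb1 sum. Without the highest cell for each gene, the log2 ratios were −0.18 for H2-Aa, −0.01 for H2-Ab1 and 0.16 for H2-Eb1, while H2-DMa stayed at 0.62. With the same share of the highest cells also left out of the cells with none (7 cells), all 4 stayed past 1.5-fold. Those log2 ratios were 0.68 for H2-Aa, 0.66 for H2-Ab1, 0.82 for H2-Eb1 and 0.84 for H2-DMa. None of the 6 class II genes was 1.5-fold higher with Cxcl5 alone, and Cd74, the invariant chain, was lower, at 0.129 beside 0.311 in cells with none. The leukocyte genes Fcer1g and C1qa were at 0.0419 and 0.0419 with Cxcl9 alone and 0.00990 and 0.0149 with Cxcl5 alone, and their part in the class II values was not tested.

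The 118 cells with 2 or 3 of the genes had the highest levels of most of these genes, at a median of 1706 genes per cell. Against cells with none, 2289 of the genes tested (24.2%) were at least 1.5-fold higher, among them 17 of the 18 interferon-gamma response genes (list median 1.61 beside 0.26 for all genes tested) and 12 of the 16 NF-kB genes, and 553 (5.85%) were at least 1.5-fold lower. Cxcl10 was at 7.45, Ccl2 at 7.03, Gbp2 at 2.50, Sod2 at 2.31 and Serpina3g at 2.81 corrected counts per cell. Ubd was above 0 in 23.7% of them (16.4 to 32.4). Leukocyte genes were also above 0 more often there, in 22.0% (14.9 to 30.6). Leaving out every gated cell with a leukocyte gene left 16 interferon-gamma response genes higher in the members as a whole. That alternative was not run for the 118 cells, and it keeps cells whose leukocyte genes went undetected. The part of leukocytes in these levels was not tested. In the 46 cells with Saa3 alone, 1897 genes (20.1%) were at least 1.5-fold higher and 1638 (17.3%) lower than in cells with none, with Cxcl10 at 3.07 and Ccl2 at 1.59.

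**Figure D5:**
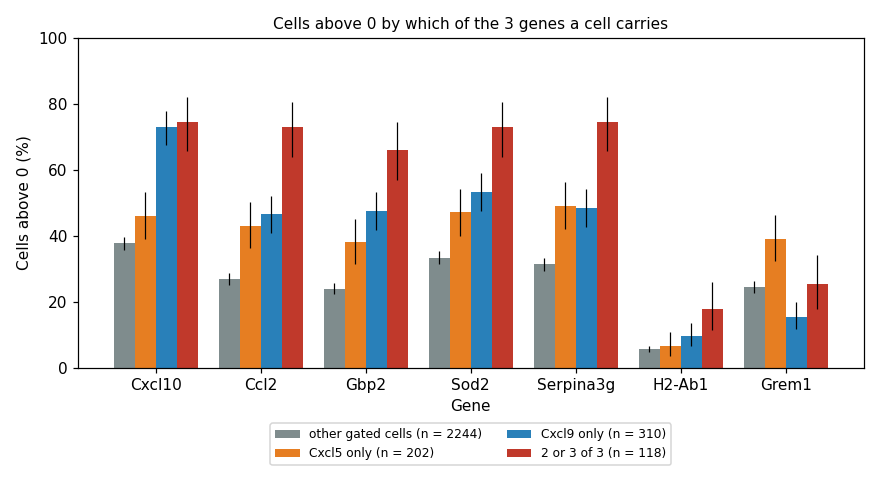
Percentage of cells above 0 (vertical axis) for 7 genes in cells with none of the 3 genes, Cxcl5 alone, Cxcl9 alone and 2 or 3 of the genes; bars are shares and error bars 95% Clopper-Pearson intervals, which cover counting error only. Cxcl10 separates Cxcl9 alone (72.9%) from Cxcl5 alone (46.0%), and Grem1 lies the other way (15.5% and 39.1%).

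Cells high for Cxcl2, Tnfaip3 and Sbno2, genes that NF-kB or STAT3 signals induce, were picked by the same gate and percentile, and there were 585 of them, called Cxcl2-high here. They shared 194 cells with the members, 28.7% of the members (25.3 to 32.3) and 33.2% of the Cxcl2-high cells (29.4 to 37.1), where 23.2% of the gated cells were members. The 482 members outside the Cxcl2-high cells had Gbp2 at 1.05, beside 0.514 in the 391 Cxcl2-high cells that were not members and 0.385 in the 1853 cells that were neither. Cxcl1 and Socs3 were ordered otherwise, at 7.15 and 2.19 in the members outside and 11.1 and 3.88 in the Cxcl2-high cells outside. The higher Cxcl2 of the members belonged to the shared cells, with 6.88 there and 0.0664 in the other members, which the choice of the Cxcl2-high cells by Cxcl2 fixes.

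In the wild-type library the same gate kept 657 of 7495 cells and found 31 members (4.72%, 3.23 to 6.63), of which 28 had 1 of the 3 genes. The shares of Saa3 and Cxcl5 in its gated cells were 1.67% (0.839 to 2.98) and 1.52% (0.732 to 2.78). They were at or below those in its 5029 Epcam-positive cells, 1.99% and 2.86%, at medians of 2736 and 2833 genes per cell. Of the 7495 cells, 4667 had Col1a1 at 1 or more and 2466 had Epcam at 0. Many Epcam-positive cells thus carried Col1a1 and are no background set for fibroblast genes. Whether the Saa3 and Cxcl5 values are background was not tested. Cxcl9 was above 0 in 1.98% of the gated cells (1.06 to 3.36) and 0.835% of the Epcam-positive cells (0.603 to 1.13). Gbp2 was at 1.19 in the 31 members and 0.393 in the other gated cells, with 37.8% of its sum in 1 cell. Cxcl10 was at 4.77 and 0.816, with 71.6% of its sum in 1 cell and 6 of the 31 cells above 0. Of the 25 leading reporter genes, 14 were tested there and 6 were at least 1.5-fold higher, where 14.1% of all genes tested were higher and 19.7% lower, and of these 6, Ces1g, Gbp2, Cxcl10 and Serpina3g rested on more than 3 corrected counts. Without the CTF and the Pi16, Pcolce2 and Cd81 gates, an alternative chosen after seeing the data, 82 cells were found, and 8 of 18 leading genes were higher beside 9.3% of all genes (8.74% were lower), with Cxcl10 at 2.88 and 0.685 and Gbp2 at 1.18 and 0.563. Ccl2 was at 0.146 and 0.404 there, opposite in direction to the reporter library, and at 0.323 and 0.220 with all gates. The libraries differ in kit, mice and sort, which cannot be told apart, and were not tested against each other.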

How the data were processed

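Single-cell RNA was measured in 1 Pdgfra-H2B-eGFP and 1 wild-type colon library. The authors aligned reads to mm10 with Cell Ranger, filtered cells and genes and applied SCTransform in Seurat 3.1 under R 3.6.2. The score values as deposited are whole-number UMI counts that the authors' SCTransform step corrected to a common depth, and a second deposited table gives their natural log after adding 1. Sequenced depth therefore cannot be recovered, which limits the precision of low values.

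Members were picked by the gates and sum given above. The members and gene lists were chosen with earlier results of these data known. A class level is the mean corrected count per cell, and a ratio is the log2 of class means with a pseudocount of 0.01, for genes with a mean of at least 0.02, called at 1.5-fold. Named genes are the rule and gate genes, the 25 highest and 15 lowest ratios, and genes of the lists. Tertiles of genes per cell were cut among gated cells. Doublets were not called; an alternative left out cells above the 95th percentile of genes per cell. Shares have Clopper-Pearson 95% intervals. The ratio step was tested on simulated data. Promoters are from RefSeq on GRCm38.p6 and coordinates from GENCODE M21. Python 3.11.15, numpy 2.4.6, scipy 1.17.1 and matplotlib 3.10.9 were used. Values of 1 gene of the lists are not reported here.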

Additional observations from a re-analysis of the deposited data

Results flagged for a closer look

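Spink4, Foxp2 and Cxcl1 moved in opposite directions past 1.5-fold in the 2 libraries, and the difference was not tested. The log2 ratio of cells with Saa3, Cxcl5 or Cxcl9 over the other gated cells was 0.77 for Spink4 and 0.90 for Foxp2 in the wild-type library, against −0.79 and −0.76 in the reporter library. For Cxcl1 it was −0.96 in the wild-type library and 0.62 in the reporter library. In the 31 wild-type cells Spink4 summed to 19, Foxp2 to 6 and Cxcl1 to 9 corrected counts. Slpi and Cx3cr1 of the 25 highest reporter genes and AW551984 of the 15 lowest also had opposite directions past 1.5-fold. So did the class II genes H2-Aa and H2-Eb1. Each of these genes rested on 3 or fewer corrected counts in the 31 cells. Of the 25 highest reporter genes 2 of the 14 tested in the wild-type library were opposite, and of the 15 lowest 3 of 13.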

How the results depend on the processing

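With 1 library per group, no result has an error between mice, and ratios of rare genes depend on the pseudocount and the minimum mean. At the 90th percentile there were 390 members. The count of higher genes, 672, became 70 with a pseudocount of 0.1, 153 with a minimum mean of 0.1, 1056 without a minimum, 62 at 2-fold, 1973 for cells with 2 or 3 of the genes over all other gated cells (those with 1 gene included), 359 when scaled and 45 in every tertile of genes per cell. The count of lower genes, 43, became 2, 3, 146, 6 and 601 under the first 5 of these, 121 at the 90th percentile and 10 in every tertile. Interferon-gamma response genes higher, 17, fell to 6 at 2-fold and 7 in every tertile, and lay between 12 and 17 otherwise. NF-kB genes higher, 10, fell to 3 with a pseudocount of 0.1, 2 at 2-fold and 2 in every tertile.

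The shares of members with Saa3, Cxcl5 and Cxcl9 moved to 11.5%, 30.5% and 50.1% when thinned, and to 8.89%, 17.9% and 30.3% when members were picked by the other pair, which by construction leaves out cells with that gene alone. The overlap with cells high for Cxcl2, Tnfaip3 and Sbno2 moved from 28.7% of members to 20.8% at the 90th percentile. Those cells were 20.0% of the gated cells at the 85th percentile and 10% at the 90th. The log2 ratio of Gbp2, Cxcl9 alone over Cxcl5 alone, was 0.67 by means and 0.31 by shares of cells above 0, under 1.5-fold. In the wild-type library, 3 cells had 2 or 3 of the genes, with 2 leading genes higher, 82 cells were found without the CTF and Pi16 gates, and 3 leading genes were higher with a pseudocount of 0.1.

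Of 853 values of 74 named genes under alternatives, 723 kept their side of the fold and 6 changed sign. Ighg2b changed to −1.17 at the 90th percentile. In cells with 2 or 3 of the genes, Ighg2b changed to −1.70, Slpi to −0.025, Cx3cr1 to −1.54, Ptn to 1.07 and Gm43581 to 0.16. There the comparison was all other gated cells, members with 1 of the genes included. Against cells with none, the log2 ratio of Slpi in the same cells was 0.52. The cause of the sign changes was otherwise not tested. The division into tertiles and the wider wild-type gate were added after the data were seen. No paired analysis was possible because there was 1 library per group and no replicate number.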

Other observations

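Cxcl13, a B cell chemokine, did not separate the members of the reporter library, at a mean of 0.337 corrected counts beside 0.336 in the other gated cells. In the 31 wild-type cells its mean was 2.97 beside 0.575, and 1 cell with 81 corrected counts held 88.0% of that sum.

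Macrophage growth factor Il34 was higher in the members than in the other gated cells of the reporter library, and higher still in the 516 cells left out by the CTF gate, with 0.467 there, 0.198 in the members and 0.0143 in the 697 cells left out by the gate on Pi16, Pcolce2 and Cd81. Serpina3g had another order, at 1.46 in the members, 0.584 in the other gated cells, 0.248 in the CTF-gene cells and 0.116 in the Pi16, Pcolce2 and Cd81 cells.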
